A study of Mus musculus with 24 samples.

Results

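The Krüppel-like factors are transcription factors that share a block of zinc fingers at the carboxyl end of the protein. The 10 genes described here are Klf2, Klf3, Klf4, Klf5, Klf6, Klf7, Klf9, Klf10, Klf13 and Klf15. They were taken by symbol from the 52997 symbols of the gene count table, and all 10 were found there and passed the filter on low counts. The counts came from 4 cell populations, isolated by sorting from hindlimb muscle of 8 week old mice of the C57BL/6 strain. Endothelial cells were sorted as CD31+ and hematopoietic cells as CD45+. The gate CD45-CD31-Sca1+PDGFRa+ defined mesenchymal stromal cells (MSCs), and the gate CD45-CD31-Sca1-Vcam1+ defined satellite cells, the stem cells of muscle (MuSCs). Each population was taken from uninjured muscle and from muscle at day 1 after cardiotoxin, a snake venom component that lyses muscle fibers, which gives 8 groups of 3 libraries. Each library was made from about 1000 cells, and the labels name no transgene, Cre or mutation in any group. The populations are defined by surface markers alone, so the CD45+ gate holds a mixture of leukocytes. The labels number the libraries of each group, and whether a shared number stands for a shared animal is not given there.

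Krüppel-like factors bind GC-rich and CACCC-type sequences and act as activators or repressors according to the partners they recruit. Several members turn over quickly and respond to signals within hours. KLF2 and KLF4 are induced by blood flow in endothelium and restrain inflammation there. KLF9 and KLF15 are induced by glucocorticoid hormones, and KLF15 drives amino acid and lipid use in muscle. KLF3 and KLF7 oppose fat cell formation, and KLF5 and KLF15 promote it. KLF6 and KLF10 respond rapidly to injury signals and to TGF-beta, and KLF13 was described as a regulator of chemokine genes in T cells.

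The promoters of 4 members are shown because the text turns most on these genes and because each holds a motif named below. Each sequence is the 250 bases before the RefSeq start on GRCm38.p6, written 5′ to 3′ on the strand of the gene, and the capitals mark the motif. In Klf2 the capitals mark a match to the MEF2 motif, which starts 118 bases upstream. In Klf4, Klf6 and Klf15 they mark the E-box CACGTG, which circadian and other bHLH factors bind. That E-box starts 182 bases upstream in Klf4, 43 bases upstream in Klf6, and 228 and 172 bases upstream in Klf15.
Klf2 (chr8:72318812-72319061, plus strand): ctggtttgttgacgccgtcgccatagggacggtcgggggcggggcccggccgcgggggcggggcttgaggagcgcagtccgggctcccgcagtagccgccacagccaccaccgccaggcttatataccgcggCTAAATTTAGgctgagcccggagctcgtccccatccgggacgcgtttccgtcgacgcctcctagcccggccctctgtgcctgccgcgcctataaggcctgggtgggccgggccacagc
Klf4 (chr4:55532476-55532725, minus strand): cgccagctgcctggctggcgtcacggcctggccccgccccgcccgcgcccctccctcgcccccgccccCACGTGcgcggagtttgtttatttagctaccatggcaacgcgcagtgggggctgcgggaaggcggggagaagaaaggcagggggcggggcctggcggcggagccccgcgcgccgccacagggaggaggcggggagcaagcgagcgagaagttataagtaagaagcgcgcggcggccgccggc
Klf6 (chr13:5861239-5861488, plus strand): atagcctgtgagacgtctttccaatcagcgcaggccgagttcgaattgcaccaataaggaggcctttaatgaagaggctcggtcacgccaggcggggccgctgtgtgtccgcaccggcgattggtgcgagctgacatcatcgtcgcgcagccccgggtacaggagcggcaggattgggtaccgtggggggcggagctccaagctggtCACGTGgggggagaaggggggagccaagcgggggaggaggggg
Klf15 (chr6:90462326-90462575, plus strand): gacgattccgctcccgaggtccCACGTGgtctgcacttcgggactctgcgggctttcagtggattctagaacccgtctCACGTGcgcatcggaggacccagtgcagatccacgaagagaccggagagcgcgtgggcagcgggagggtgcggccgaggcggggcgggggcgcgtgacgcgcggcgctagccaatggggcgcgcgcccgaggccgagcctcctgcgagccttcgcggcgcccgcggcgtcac

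RefSeq promoters were matched for 8 of the 10 members, all but Klf5 and Klf10. Motifs were searched on both strands in these 250 bases and in 32851 promoters of the same length, and overlaps between motifs were allowed. The E-box CACGTG was found in 3 of the 8 promoters and in 6.02% of all promoters. The MEF2 motif was found in Klf2 alone among the 8 and in 2.92% of all promoters. The GC box GGGCGG was found in 7 of the 8 (32.7% of all promoters), the CACCC box in 6 (52.0%), and CCAAT in 4 (33.8%). The AP-1 motif TGANTCA was found in 1, that of Klf9 (6.75% of all promoters). The cyclic AMP response element TGACGTCA was found in none of the 8 (1.55% of all promoters). The 8 promoters were rich in G and C, from 59.2% in Klf7 to 78.4% in Klf3, against a median of 52.4% over all promoters. A motif match describes the letters of the window only.

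The 24 libraries held 2301202 to 7649841 counts each, so 3 counts correspond to 0.392 to 1.30 CPM, the counts-per-million scale, before any adjustment of the totals. The levels below use totals adjusted by TMM for composition. Marker transcripts matched the gates. Pecam1 averaged 2052 CPM in uninjured CD31+ cells, Ptprc 784 CPM in uninjured CD45+ cells, Pdgfra 568 CPM in uninjured MSCs and Pax7 574 CPM in uninjured MuSCs, and in no other uninjured population did the mean of any of these 4 reach 50 CPM. Transcripts of another population were higher in some injured libraries than in others of their group. Injured CD31+ library 1 reached 380.4 CPM summed over 10 leukocyte markers, against 14.1 and 27.6 CPM in the other two. Injured CD45+ library 3 reached 315 CPM over 10 stromal markers, against 63.4 and 75.5 CPM. Pdgfra was at 0.298, 48.8 and 25.4 CPM in injured MuSC libraries 1, 2 and 3 and at most 0.339 CPM in uninjured ones. Each count of changed members below is also given without 3 of them, CD31+ library 1, CD45+ library 3 and MuSC library 2, a choice made after seeing the data. Injured MuSC library 3 is kept in that fit, and the MuSC count is given without it as well.

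The first comparison asked how the 10 genes were distributed over the 4 populations before injury. Klf6 was the most abundant member per exon length in all 8 groups, and the least abundant was Klf5 in 5 groups, Klf2 in both MuSC groups and Klf15 in injured CD45+ cells. Klf2, Klf3, Klf4, Klf6 and Klf13 were all lowest in uninjured MuSCs, whereas Klf15 was highest there. The test that the 4 uninjured populations are equal (edgeR's quasi-likelihood F test, Benjamini-Hochberg adjusted over 16263 genes) was passed by 10 of 10 members, and by 78.7% of all genes tested. Between pairs of uninjured populations, 6 of the 10 genes differed for CD31+ against CD45+ cells (50.6% of all genes), 5 for CD31+ cells against MSCs (47%), 8 for CD31+ cells against MuSCs (49.1%), 8 for CD45+ cells against MSCs (56.8%), 7 for CD45+ cells against MuSCs (56.2%) and 9 for MSCs against MuSCs (40.7%). Levels of single genes are given below as CPM, which do not allow comparison between genes of different length.

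**Figure D1:**
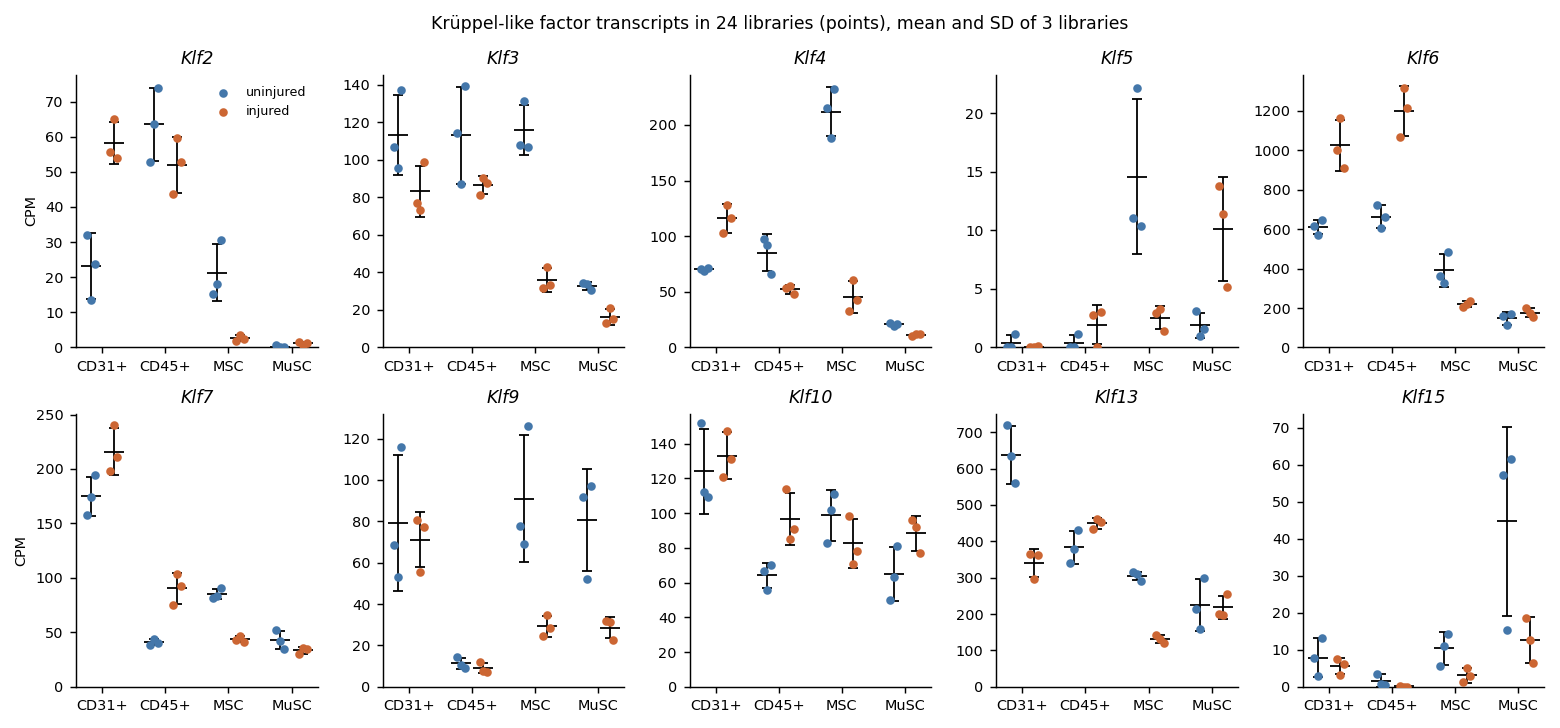
CPM (vertical axis, linear, from 0, a different scale in each panel) of each of the 10 genes in every library. Points are libraries, blue uninjured and orange injured, and the bars are the mean and SD of 3 libraries. Klf2 and Klf4 moved up in CD31+ cells and down in MSCs, and Klf15 was highest in uninjured MuSCs with 1 library far below the other two.

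Klf2 (chromosome 8, 72319033-72321656, plus strand, GRCm38) encodes a factor of quiescent endothelium and of resting T cells. Its level was 52.9, 63.6 and 73.8 CPM in the 3 libraries of uninjured CD45+ cells, the highest of the uninjured groups. It was 32.1, 13.6 and 23.9 CPM in uninjured CD31+ cells and 15.2, 18.1 and 30.7 CPM in uninjured MSCs, and these neighbours in the order did not differ beyond their spread (adjusted p = 0.75). The CD45+ level exceeded that of CD31+ cells by 1.44 ± 0.30 (SE) on the log2 scale (adjusted p = 0.00032). In uninjured MuSCs, Klf2 had 4 counts in all, 0.774 CPM in library 1 and 0 in the other two. A level of 0 in a library is below what 3 counts would give, so it places Klf2 near or under the detection limit in these cells.

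Klf4 (chromosome 4, 55527143-55532466, minus strand) encodes a factor of endothelium, monocytes and the skin barrier. It had another order, with 215, 188 and 232 CPM in uninjured MSCs, above every library of every other group. Uninjured CD45+ cells had 97.3, 92.0 and 66.1 CPM and uninjured CD31+ cells 70.6, 68.4 and 71.3 CPM, which did not differ beyond their spread (adjusted p = 0.188). Uninjured MuSCs were lowest, at 22.1, 19.0 and 21.4 CPM. The MSC level exceeded that of the next population, CD45+ cells, by 1.31 ± 0.17 on the log2 scale (adjusted p = 5.66e-07).

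Klf6 (chromosome 13, 5861482-5870394, plus strand), an injury-responsive factor of endothelium, macrophages and fibroblasts, had its highest uninjured levels in CD45+ cells (722, 604 and 662 CPM) and CD31+ cells (616, 573 and 646 CPM). These ranges overlap and did not differ in the test (adjusted p = 0.542). MSCs had 362, 326 and 484 CPM and MuSCs 158, 112 and 172 CPM, and these groups overlap neither with each other nor with the first pair. Klf13 (chromosome 7, 63886351-63938915, minus strand) was led by CD31+ cells at 720.4, 634 and 561 CPM. It was 339.6, 378 and 432 CPM in CD45+ cells and 315, 309 and 292 CPM in MSCs (adjusted p = 0.0852 between these neighbours, with the threshold passed in 13 of 33 alternative settings). It was 215, 158 and 299 CPM in MuSCs (adjusted p = 0.0288 against MSCs). That call was lost in 14 of 33 alternative settings, with adjusted p up to 0.415 (without uninjured MSC library 1).

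Klf7 (chromosome 1, 64029447-64122282, minus strand), best known for axon growth and as a brake on fat cell formation, was highest in CD31+ cells at 158, 174 and 194 CPM. MSCs followed at 81.1, 83.3 and 90.4 CPM. MuSCs at 51.7, 42.0 and 35.0 CPM and CD45+ cells at 38.7, 44.0 and 39.8 CPM did not differ beyond their spread (adjusted p = 0.698). Klf10 (chromosome 15, 38291463-38300706, minus strand), an early TGF-beta response gene, had the smallest ratio of highest to lowest uninjured mean of the 10 genes, with means of 64.1 CPM in CD45+ cells, 64.8 CPM in MuSCs, 98.6 CPM in MSCs and 124 CPM in CD31+ cells. The upper pair (adjusted p = 0.125, passing in 7 of 33 alternative settings) and the lower pair (adjusted p = 0.956) missed the threshold.

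Klf3 (chromosome 5, 64803388-64832901, plus strand) encodes a repressor that recruits CtBP. Its means of 113 ± 21.3 CPM (SD, n = 3) in CD31+ cells, 113 ± 25.9 CPM in CD45+ cells and 116 ± 13.3 CPM in MSCs did not differ beyond their spread (adjusted p = 0.907 to 1 over the 3 pairs). MuSCs had 34.5, 33.9 and 30.4 CPM, lower than MSCs by 1.81 ± 0.19 on the log2 scale (adjusted p = 4.76e-08). Klf5 (chromosome 14, 99298691-99315036, plus strand), a factor of proliferating epithelium and smooth muscle, was the least abundant gene in uninjured CD31+ and CD45+ cells, with 4 counts in each of these groups. It was 11.1, 22.2 and 10.4 CPM in uninjured MSCs and 3.10, 1.02 and 1.57 CPM in uninjured MuSCs (adjusted p = 0.00455 between them). Exons of Klf3 overlap an antisense gene model, Gm20033, over 404 bases, and exons of Klf7 overlap Gm26649 over 3196 bases and Gm13748 over 4 bases. The library kit does not mark strand, so reads from these stretches cannot be assigned to a strand. The antisense models held 168, 0 and 79 counts over all libraries, against 8291 for Klf3 and 10781 for Klf7.

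Klf9 (chromosome 19, 23141226-23168134, plus strand) and Klf15 (chromosome 6, 90462576-90475238, plus strand), both glucocorticoid-induced, had their lowest uninjured means in CD45+ cells. Klf9 was 14.5, 10.7 and 9.16 CPM in uninjured CD45+ cells. Its means in CD31+ cells (79.3 ± 33.0 CPM), MuSCs (80.5 ± 24.6 CPM) and MSCs (91.0 ± 30.6 CPM) did not differ beyond their spread (adjusted p = 0.591 to 0.947 over the 3 pairs). Klf15 was 57.3, 15.3 and 61.7 CPM in uninjured MuSCs, and every value lay above every Klf15 value of the other uninjured groups. The next population, MSCs, had 5.70, 11 and 14.4 CPM, lower by 2.13 ± 0.59 on the log2 scale (adjusted p = 0.00543). CD31+ cells had 7.65, 2.82 and 13.3 CPM, not different from MSCs beyond the spread (adjusted p = 0.645). CD45+ cells had 3.56, 0.868 and 0.572 CPM, and their library 1 lies inside the CD31+ range. They differed from CD31+ cells (adjusted p = 0.022), a call lost in 5 of 33 alternative settings, with adjusted p up to 0.12. Bulk libraries cannot tell fewer cells of a type from less RNA per cell, which holds for every level given here.

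Per exon length, the 10 genes can be compared with each other. The scale is CPM divided by the kilobases of merged exons (RPKM). The 10 genes summed to 340.3 ± 24.1 RPKM (SD, n = 3) in uninjured CD31+ cells, 298 ± 14 in CD45+ cells, 280.4 ± 36.6 in MSCs and 127 ± 31.7 in MuSCs. After injury the sums were 431 ± 30.9, 422 ± 32.5, 119.7 ± 5.49 and 113 ± 6.78 RPKM in the same order. The mean sum was higher in injured than in uninjured CD31+ and CD45+ cells by more than either SD, lower in injured MSCs by more than either SD, and within the uninjured SD in injured MuSCs.

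Klf6 supplied 26.6% of the summed RPKM in uninjured MuSCs and 64.6% in injured CD45+ cells, the lowest and the highest of its 8 shares. Klf13 ranked second in 6 of the 8 groups. In uninjured MSCs the second rank belonged to Klf4, with 24.9 ± 1.75%, and in injured MSCs to Klf10, with 16.6 ± 3.57%. Klf4 made up 12.3 ± 3.27% in injured MSCs. In uninjured MuSCs Klf9 and Klf15 held 13.0 ± 1.28% and 11.8 ± 5.16%, and after injury 5.25 ± 0.756% and 3.94 ± 1.73%.

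**Figure D2:**
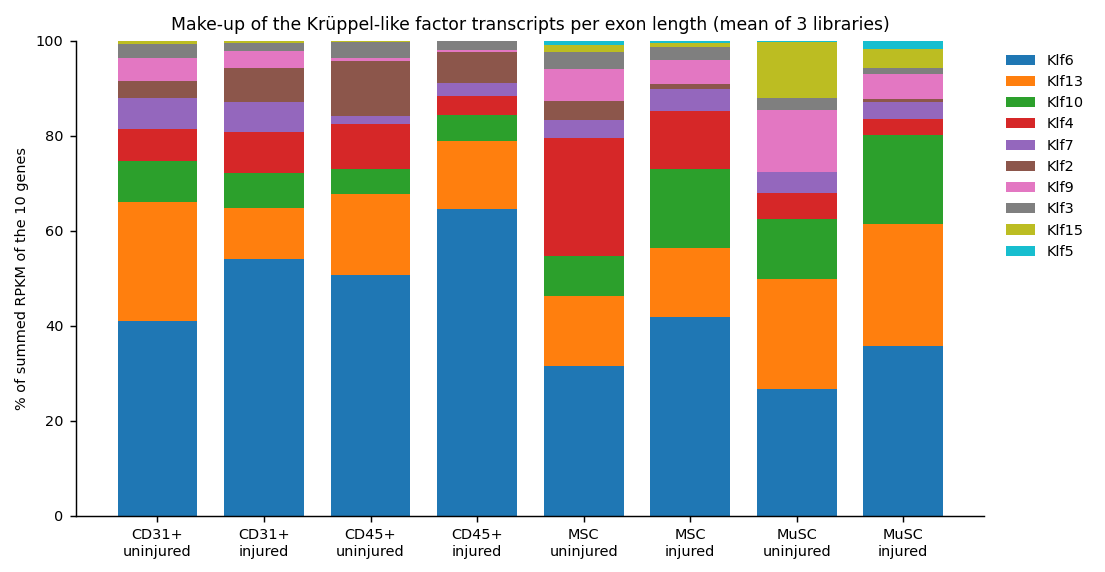
Share (vertical axis, % of the summed RPKM of the 10 genes, linear from 0 to 100) of each gene in the 8 groups, as the mean of 3 libraries. Klf6 is the largest block in every group, Klf4 is second in uninjured MSCs at 24.9%, and Klf15 is visible mainly in uninjured MuSCs at 11.8%.

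The second comparison asked how the 10 genes changed 1 day after cardiotoxin in each population. In MSCs 9 of 10 fell and none rose. In CD31+ cells Klf2, Klf4 and Klf6 rose and Klf13 fell. In CD45+ cells Klf6, Klf7 and Klf10 rose while Klf4 and Klf15 fell. In MuSCs Klf5 rose while Klf3, Klf4, Klf9 and Klf15 fell. The test of any injury effect over the 4 populations was passed by 10 of 10 genes and by 64.9% of all genes. Of all genes tested, 18.3% rose and 23.6% fell in MSCs, 14.1% rose and 9.3% fell in CD31+ cells, 16% rose and 18.5% fell in CD45+ cells, and 21.4% rose and 17.5% fell in MuSCs.

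**Figure D3:**
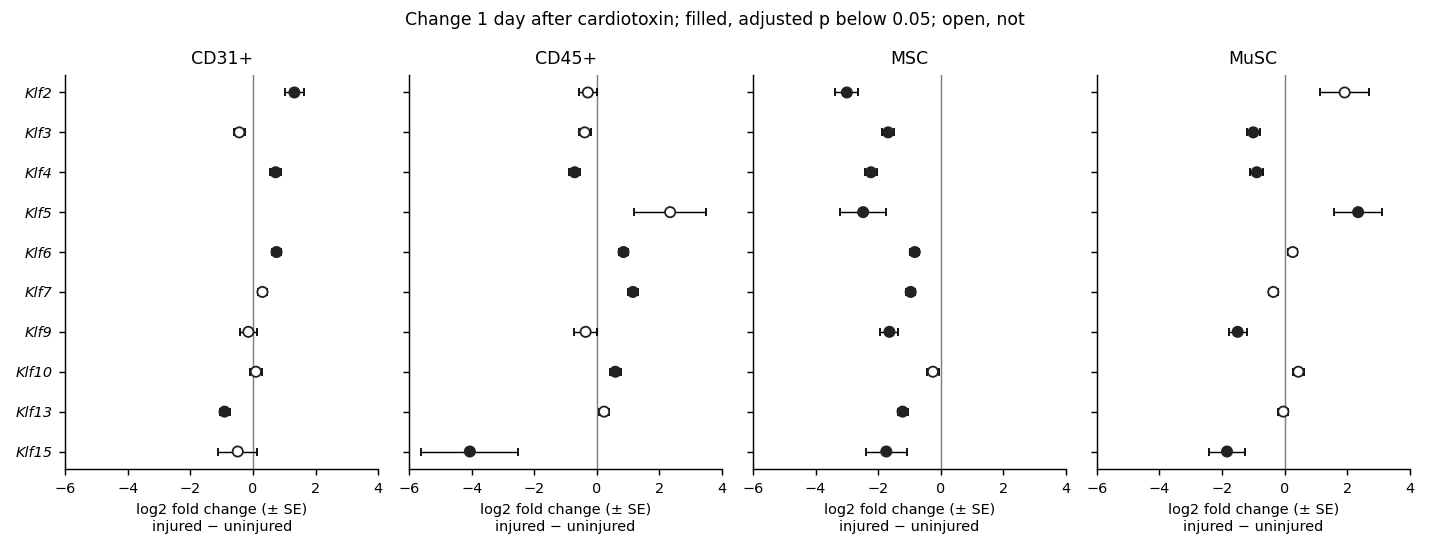
Change after injury (horizontal axis, log2 fold change, injured minus uninjured, with SE) of each gene in the 4 populations, from edgeR. Filled points have an adjusted p below 0.05, and no point is drawn for Klf5 in CD31+ cells, where the groups held 4 counts and 1 count in all. All 10 points lie left of 0 in MSCs, and Klf2, Klf4 and Klf6 lie right of 0 in CD31+ cells.

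In MSCs, the median log2 fold change of the 10 genes was -1.66, against -0.22 over all genes tested. The uninjured and injured libraries did not overlap for 9 of the 10 genes, which held for 55% of all genes, and 41.9% of all genes passed the test in either direction. Klf2 went from 15.2, 18.1 and 30.7 CPM to 1.96, 3.48 and 2.52 CPM, a change of -3.00 ± 0.37 on the log2 scale (adjusted p = 4.83e-07). Every injured library was far below every uninjured one. Klf4 went from 215, 188 and 232 CPM to 32.4, 60.3 and 43.0 CPM (log2 change -2.23 ± 0.18, adjusted p = 5.83e-10). Its level in injured MSCs was below that in injured CD31+ cells by 1.35 ± 0.17 on the log2 scale (adjusted p = 5.65e-07) and did not differ beyond the spread from that in injured CD45+ cells (adjusted p = 0.321).

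Klf3 fell from 108, 131 and 107 CPM to 31.5, 43.1 and 33.3 CPM in MSCs (log2 fold change -1.68 ± 0.19, adjusted p = 1.5e-07). Klf9 fell from 77.9, 69.2 and 126 CPM to 24.5, 34.5 and 28.6 CPM (-1.64 ± 0.29, adjusted p = 7.81e-05). Klf13 fell from 315, 309 and 292 CPM to 142, 130.1 and 121 CPM (-1.22 ± 0.16, adjusted p = 1.58e-06). Klf7 (-0.96 ± 0.14) and Klf6 (-0.83 ± 0.15) fell by less, and the groups did not overlap for either.

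The less abundant Klf5 and Klf15 fell in MSCs with larger errors. Klf5 went from 11.1, 22.2 and 10.4 CPM to 2.94, 3.32 and 1.44 CPM (log2 change -2.48 ± 0.74, adjusted p = 0.0091). Without uninjured library 2 the adjusted p was 0.0806, and without injured library 3 it was 0.051. Klf15 went from 5.70, 11 and 14.4 CPM to 1.26, 5.14 and 2.88 CPM (-1.74 ± 0.65, adjusted p = 0.0345), a call that was lost in 12 of 33 alternative settings. Those include leaving out MSC uninjured library 2 or 3 (adjusted p = 0.111 and 0.181) and MSC injured library 1 or 3 (0.213 and 0.0955). Klf10 was the exception, at 82.8, 102 and 111 CPM before and 98.3, 70.9 and 78.4 CPM after injury, overlapping ranges with an adjusted p of 0.266. Without the 3 libraries named above, 8 of the 10 genes were called in MSCs. Muscle fiber transcripts summed over 10 genes were 159.7-422 CPM in uninjured and 3.49-15.3 CPM in injured MSCs. The 10 summed stromal markers were 66485-92653 and 20781-25190.2 CPM, with Pdgfra itself at means of 568 and 653 CPM. Their part in the fall of the 9 genes was not tested.

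In CD31+ cells, 4 of 10 genes changed, against 23.4% of all genes, and the median log2 fold change was -0.03 for the 10 genes and -0.04 for all. Klf2 rose from 32.1, 13.6 and 23.9 CPM to 55.7, 65.0 and 54.0 CPM (log2 change 1.32 ± 0.30, adjusted p = 0.00203). Klf4 rose from 70.6, 68.4 and 71.3 CPM to 103, 128 and 116 CPM (0.72 ± 0.17, adjusted p = 0.003). Klf6 rose from 616, 573 and 646 CPM to 1000.4, 1165 and 912 CPM (0.75 ± 0.15, adjusted p = 0.000502). All injured libraries exceeded all uninjured ones for each of these 3 genes, and 5 of the 10 genes had no overlap between the groups, as had 37.3% of all genes.

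Klf13 moved the other way in CD31+ cells, from 720.4, 634 and 561 CPM to 364, 295 and 362 CPM (log2 change -0.91 ± 0.16, adjusted p = 0.000138). CD31+ cells had the most Klf13 of the uninjured populations, and after injury their level was below that of CD45+ cells by 0.40 ± 0.16 on the log2 scale (adjusted p = 0.0374), a call lost in 3 of 33 alternative settings, with adjusted p up to 0.174 (without injured CD31+ library 2). Klf3, at 113 ± 21.3 before and 83.1 ± 13.8 CPM after injury, just missed the threshold (adjusted p = 0.0848) and passed it with DESeq2 size factors (0.0337), with DESeq2 (0.0262), with limma voom (0.0471), in a fit of the compared libraries alone (0.0481) and without injured library 3 (0.0462). Klf7, Klf9, Klf10 and Klf15 did not pass. Klf5 had 4 counts before and 1 after injury, and no fold is given. The same number, 4 of 10, was called without the 3 libraries named above, and the values of Klf2, Klf4, Klf6 and Klf13 were then 1.36, 0.81, 0.77 and -0.95. Summed mural cell markers (10 genes) were 597-839 CPM in uninjured and 348-522 CPM in injured CD31+ cells, and muscle fiber transcripts 116-157 and 41.5-90.2 CPM. Their part in these changes was not tested.

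In CD45+ cells, 5 of 10 genes changed, against 34.5% of all genes. Klf7 rose most among those with ample counts, from 38.7, 44.0 and 39.8 CPM to 75.5, 104 and 92.7 CPM (log2 change 1.15 ± 0.15, adjusted p = 1.76e-06). Klf6 rose from 722, 604 and 662 CPM to 1067, 1315 and 1214 CPM (0.85 ± 0.15, adjusted p = 8.49e-05). Klf10 rose from 66.4, 55.8 and 70.1 CPM to 114, 85.3 and 90.6 CPM (0.59 ± 0.18, adjusted p = 0.0141). Injured libraries were above uninjured ones throughout for these 3 genes. The Klf10 call was lost without uninjured library 2 (adjusted p = 0.0719) or injured library 1 (0.0594).

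Klf4 fell in CD45+ cells from 97.3, 92.0 and 66.1 CPM to 53.6, 54.9 and 47.9 CPM (log2 change -0.71 ± 0.18, adjusted p = 0.00288). No overlap between the groups was seen for 6 of the 10 genes and for 43% of all genes. Klf15 had 20 counts over the uninjured and 1 over the injured libraries, a ratio of 22.1 with a counting interval from 3.53 to 915 (95%). Its fitted change (-4.06, adjusted p = 0.0474) rests on these few counts and was lost in 16 of 32 alternative settings. Among them were leaving out any CD45+ library but uninjured library 3, with adjusted p from 0.0508 to 0.31. Klf2 (63.5 ± 10.5 and 52.0 ± 7.94 CPM), Klf3, Klf5, Klf9 and Klf13 did not pass. Without injured CD45+ library 1, 3 of the 10 genes were called, and without the 3 libraries named above 4 were.

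The make-up of the CD45+ gate differed between the groups. Summed B cell markers (5 genes) were 696-2978 CPM before and 8.82-51.1 CPM after injury, and T and NK cell markers (8 genes) 232-627 and 8.09-20.2 CPM. Monocyte and macrophage markers (10 genes) were 7344-14173 CPM before and 7147-7878 CPM after injury, whereas neutrophil markers (8 genes) went from 1162-3691 to 7752-11937 CPM. Single genes of both lists moved in opposite directions. Mean C1qa went from 1898 to 439 CPM and Fcgr1 from 120.3 to 788 CPM, and S100a8 from 659.6 to 2791 CPM and Retnlg from 132 to 100.1 CPM. The part of these marker transcripts in the changes of the Krüppel-like factors in CD45+ cells was not tested.

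In MuSCs, 5 of 10 genes changed, against 38.8% of all genes, and the median of the 10 was -0.20 against -0.04 over all. Klf9 fell from 92.0, 52.2 and 97.2 CPM to 31.7, 31.5 and 22.6 CPM (log2 change -1.50 ± 0.29, adjusted p = 0.000224). Klf3 fell from 34.5, 33.9 and 30.4 CPM to 12.8, 21.2 and 15.3 CPM (-1 ± 0.20, adjusted p = 0.000327). Klf4 fell from 22.1, 19.0 and 21.4 CPM to 9.97, 11.7 and 12.2 CPM (-0.89 ± 0.20, adjusted p = 0.000901). The libraries of the groups did not overlap for these 3 genes, and for 5 of the 10 in all, against 49.5% of all genes.

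Klf15, the muscle metabolic regulator that led in uninjured MuSCs, went from 57.3, 15.3 and 61.7 CPM to 18.7, 12.7 and 6.36 CPM (log2 change -1.84 ± 0.57, adjusted p = 0.0134). Uninjured library 2 lies inside the injured range. The call was lost without uninjured library 1 or 3 (adjusted p = 0.0576 and 0.0683), without injured library 3 (0.0733), and without the 3 libraries named above (0.0525). Klf5 went the other way, from 3.10, 1.02 and 1.57 CPM to 13.8, 11.4 and 5.19 CPM (2.35 ± 0.77, adjusted p = 0.0186). It had 27 counts before and 204 after injury, a ratio of 4.83 with a counting interval from 3.22 to 7.51, and its call was lost without uninjured library 2 or 3 (0.0681 and 0.0679) or injured library 1 (0.0715).

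Klf2 was also higher in injured MuSCs, with 25 counts against 4, a ratio of 4 with a counting interval from 1.38 to 15.8, but it did not pass (adjusted p = 0.0595). It passed without uninjured library 1, which held all 4 of the uninjured counts (0.00711), with no filter on low counts (0.0154) and with limma voom (0.0451). Klf7 (42.9 ± 8.41 and 33.4 ± 3.14 CPM, adjusted p = 0.0521) and Klf10 (64.8 ± 15.4 and 88.3 ± 9.98 CPM, adjusted p = 0.053) just missed the threshold. Klf7 passed in 16 of 33 alternative settings, such as DESeq2 size factors (0.013), and Klf10 in 8 of 33. Klf6 and Klf13 were 147 ± 31.2 and 224 ± 71.1 CPM before and 177 ± 21.5 and 218 ± 32.3 CPM after injury. Without the 3 libraries named above, 4 of the 10 genes were called in MuSCs, and Klf5, still called, rose by 2.27 on the log2 scale. Without injured MuSC library 3 as well, 1 injured MuSC library remained, assumed to vary like the libraries of the other groups. In that fit 4 genes were called, all of them lower after injury. They were Klf3 (-1.52), Klf4 (-1.22), Klf9 (-1.51) and Klf7 (-0.69, adjusted p = 0.0306), while Klf5 (2.64, adjusted p = 0.0605) and Klf15 (-1.42, adjusted p = 0.277) missed the threshold. Summed mural cell markers (10 genes) were 1152-1972 CPM in uninjured and 496-984 CPM in injured MuSCs, and muscle fiber transcripts 487-554 and 190-240.1 CPM. Most of the mural sum came from Acta2 and Notch3, with means of 914 and 587 CPM in uninjured and 636 and 152 CPM in injured MuSCs. The next mural marker, Cspg4, averaged 9.05 and 8.72 CPM, and Rgs5, Pdgfrb and Myh11 averaged less in uninjured MuSCs. The part of mural and fiber transcripts in the changes of the 10 genes was not tested.

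The third comparison asked whether the response to injury differed between populations. The test that the 4 injury effects are equal was passed by 9 of 10 members, all but Klf15 (adjusted p = 0.28), and by 35.9% of all genes tested. The effects of 2 populations come from separate libraries and were tested as independent. The labels do not say whether libraries of different populations share an animal. Between pairs of populations, the effects differed for 4 of the 10 genes in CD31+ against CD45+ cells (17.1% of all genes), 6 in CD31+ cells against MSCs (12.6%), 4 in CD31+ cells against MuSCs (12.3%), 9 in CD45+ cells against MSCs (25.1%), 2 in CD45+ cells against MuSCs (24.4%) and 5 in MSCs against MuSCs (7.73%). The injury effect on Klf2 in CD31+ cells exceeded that in MSCs by 4.32 ± 0.48 on the log2 scale (adjusted p = 1.79e-06), and that in CD45+ cells by 1.60 ± 0.42 (adjusted p = 0.00899). For Klf4 the same differences were 2.95 ± 0.25 (adjusted p = 2.82e-08) and 1.43 ± 0.25 (adjusted p = 0.000205). Klf4 rose in CD31+ cells and fell in each of the other 3 populations, and the difference between CD31+ cells and MuSCs was 1.61 ± 0.26 (adjusted p = 0.00017).

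Klf7 and Klf6 separated CD45+ cells from MSCs most clearly. The injury effect on Klf7 was larger in CD45+ cells than in MSCs by 2.11 ± 0.20 (adjusted p = 5.96e-08) and than in CD31+ cells by 0.85 ± 0.20 (adjusted p = 0.00403). For Klf6 the difference between CD45+ cells and MSCs was 1.69 ± 0.21 (adjusted p = 1.88e-06), and the rises in CD31+ and CD45+ cells did not differ beyond their error (-0.11 ± 0.21, adjusted p = 0.783). Klf13 fell in CD31+ cells and MSCs by amounts that did not differ beyond their error (0.31 ± 0.23, adjusted p = 0.418), and both effects differed from that in CD45+ cells (adjusted p = 9e-04 and 3.43e-05).

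The falls of Klf9 in MSCs and MuSCs did not differ beyond their error (-0.14 ± 0.40, adjusted p = 0.948), and each differed from the effect in CD31+ cells (adjusted p = 0.0154 and 0.0278). The first of these differences was lost in 6 of 32 alternative settings, such as without uninjured MSC library 3 (adjusted p = 0.0933). The other was lost in 7 of 32, such as without injured MuSC library 3 (0.0806) or injured CD31+ library 1 (0.0686). Klf5 moved in opposite directions in MSCs and MuSCs, with a difference of -4.83 ± 1.07 (adjusted p = 0.00535). Before injury Klf5 was higher in MSCs, and after injury it was higher in MuSCs, by 1.96 ± 0.73 on the log2 scale (adjusted p = 0.0413). This last call was lost in 13 of 33 alternative settings, among them leaving out any one injured MSC library (adjusted p from 0.0719 to 0.153) and injured MuSC library 1 or 2 (0.145 and 0.0945). The Klf3 effect was more negative in MSCs than in CD31+ cells (difference 1.24 ± 0.26, adjusted p = 0.00243), and the difference between MSCs and MuSCs did not pass (adjusted p = 0.15). For Klf10, the difference between CD45+ cells and MSCs passed (0.84 ± 0.25, adjusted p = 0.0156) but was lost in 6 of 32 alternative settings. The joint test over the 4 populations was lost in 22 of 32, with adjusted p up to 0.251 (without injured CD45+ library 1).

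Between pairs of injured populations, 7 of the 10 genes differed for CD31+ against CD45+ cells (53.1% of all genes), 9 for CD31+ cells against MSCs (51.5%), 9 for CD31+ cells against MuSCs (54.1%), 7 for CD45+ cells against MSCs (61.7%), 9 for CD45+ cells against MuSCs (64.4%) and 6 for MSCs against MuSCs (33.6%). After injury CD31+ and CD45+ cells had the most Klf2 and Klf6, and the differences between these 2 populations missed the threshold (adjusted p = 0.667 for Klf2 and 0.206 for Klf6, which passed in 8 of 33 alternative settings). MSCs and MuSCs were lower. Every injured MSC library lay above every injured MuSC library for both genes, but these differences also missed the threshold (adjusted p = 0.0794 for Klf2 and 0.111 for Klf6) and passed it in 6 and 12 of 33 alternative settings. Klf7 and Klf9 were highest in injured CD31+ cells, above the next population by 1.25 ± 0.14 and 1.29 ± 0.29 on the log2 scale.

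The genes whose pattern was most like each member were sought among 9985 other genes, by Pearson r of log2 CPM over the 8 group means. These r describe 8 points that share libraries within each group. For Klf2 they were Frmd4b and Gngt2 (r = 0.966 each) and Trim30a (0.961). For Klf3 they were Lpl (0.988), Tapbp (0.984) and Usp18 (0.979), and for Klf4 Tpgs1 (0.954), Arsa (0.943) and Ifngr1 (0.934). For Klf6 they were Tspan14 (0.984), Mef2a (0.979) and Rab5c (0.967), and for Klf7 Arid5b (0.986), Mcf2l (0.972) and Ogdh (0.970). For Klf9 they were Aktip (0.994), Ankrd46 and Kank1 (0.983 each), and for Klf15 Nrbp2 and Mapre3 (0.988 each) and Speg (0.984). Among the members themselves, the 5 highest values were those of Klf2 and Klf6 (r = 0.95), Klf3 and Klf4 (0.89), Klf7 and Klf10 (0.88), Klf2 and Klf3 (0.86) and Klf9 and Klf15 (0.82), and Klf6 and Klf15 ran opposite (-0.72).

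Other genes of the family were mostly low. Of 16 further Klf and Sp genes, 8 passed the filter on low counts, and none exceeded a group mean of 62.7 CPM, that of Sp1 in uninjured CD31+ cells. In the 4 injury comparisons 3, 2, 5 and 2 of the 8 fell and 1, 0, 0 and 1 rose in CD31+ cells, CD45+ cells, MSCs and MuSCs. Klf12, a repressor, fell in all 4 populations, from 31.2 ± 6.53 to 14.6 ± 3.13 CPM in CD31+ cells and from 16.4 ± 6.54 to 5.13 ± 1.95 CPM in MSCs. Klf16 rose in CD31+ cells (6.24 ± 0.434 to 16.5 ± 5.04 CPM, adjusted p = 0.00121) and in MuSCs (5.80 ± 1.74 to 21.8 ± 0.878 CPM, adjusted p = 1.75e-05). Sp1 fell in CD31+ cells, CD45+ cells and MSCs, by 1.14 ± 0.17 on the log2 scale in the last.

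Upstream of Klf2 and Klf4 lies the MEKK3-MEK5-ERK5-MEF2 pathway, restrained by the cerebral cavernous malformation proteins. Of 11 genes of this pathway tested, 2 were higher and 2 lower after injury in CD31+ cells, 3 higher and 5 lower in CD45+ cells, 2 higher and 3 lower in MSCs, and 1 higher and 3 lower in MuSCs, each past the test. Mef2c, a transcription factor of the pathway, fell in all 4 populations, from 214 ± 6.05 to 125 ± 11.6 CPM in CD31+ cells (log2 fold change -0.78 ± 0.18) and from 41.4 ± 8.55 to 9.62 ± 1.16 CPM in MSCs (-2.10 ± 0.22). Ccm2, a component of the malformation complex, rose in CD31+ cells, MSCs and MuSCs and fell in CD45+ cells (204 ± 42.0 to 82.2 ± 19.7 CPM). Piezo1, a flow-sensing channel, was 123 ± 9.42 and 122 ± 11.1 CPM in CD31+ cells before and after injury, and rose in MSCs from 18.3 ± 3.01 to 46.4 ± 6.31 CPM. Heg1, the receptor that anchors the complex, fell in MSCs (615 ± 134 to 268 ± 63.8 CPM) and in CD45+ cells.

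Of 11 genes described as endothelial KLF2 or KLF4 targets, 2 rose and 1 fell in CD31+ cells, with a list median of 0.75 against -0.04 over all genes. The list was not split into induced and repressed targets, so its counts and medians do not measure target activity. The list medians were 0.54 in CD45+ cells (-0.12 over all genes), -0.23 in MSCs (-0.22) and -0.57 in MuSCs (-0.04). S1pr1, the sphingosine phosphate receptor of vessels and lymphocytes, was 1290 ± 256 and 1339 ± 146 CPM in CD31+ cells (adjusted p = 0.898). Adamts4, a matrix protease, rose there from 5.11 ± 2.06 to 151 ± 58.2 CPM (log2 change 4.87 ± 0.53, adjusted p = 6.53e-07). Icam1, an adhesion molecule, was 87.5 ± 10.4 and 151 ± 26.5 CPM (adjusted p = 0.0762). Adamts5, of the same list, was 15.4 ± 2.78 and 12.9 ± 3.92 CPM in CD31+ cells (adjusted p = 0.533). It fell in MSCs and in MuSCs, by 1.49 on the log2 scale in each. Past the test, 1 was higher and 1 lower in CD45+ cells, 1 higher and 3 lower in MSCs, and 2 higher and 2 lower in MuSCs. Of 5 leukocyte KLF2 targets, 2 fell and none rose in CD45+ cells. They were S1pr1 (128 ± 21.8 to 18.3 ± 6.29 CPM) and the lymphocyte homing receptor Ccr7 (259.7 ± 174 to 11.8 ± 14.8 CPM), beside the fall of B, T and NK cell markers given above. In MSCs 1 of the 5 fell, and in CD31+ cells and MuSCs none passed in either direction.

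Klf9 and Klf15 are glucocorticoid targets, and 10 other genes of that response were measured. In CD31+ cells 3 rose and 2 fell, of the CD45+ values 5 rose and 3 fell, and in MSCs and MuSCs 3 rose and 5 fell. Nr3c1, the glucocorticoid receptor, fell in all 4 populations, from 137 ± 4.34 to 44.9 ± 2.44 CPM in MSCs (log2 fold change -1.61 ± 0.19) and from 65.6 ± 10.5 to 28.4 ± 8.80 CPM in MuSCs (-1.21 ± 0.20). Fkbp5, a receptor cochaperone, rose in MuSCs from 25.3 ± 12.9 to 52.9 ± 3.14 CPM (adjusted p = 0.00262). It also rose in CD31+ cells (5.22 ± 1.39 to 26.2 ± 4.18 CPM, adjusted p = 4.8e-06) and in CD45+ cells (adjusted p = 0.0103). In MSCs it did not pass (adjusted p = 0.233). Errfi1, a brake on EGF receptor signalling, rose in all 4 populations, from 113 ± 28.6 to 469 ± 80.5 CPM in MSCs. Mt2, a metallothionein, rose in all 4 as well, from 50.5 ± 19.0 to 759 ± 76.9 CPM in MSCs.

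Of 7 metabolic genes linked to KLF15 that were tested, 1 rose and 2 fell in CD31+ cells, 3 fell in CD45+ cells, and 4 fell in MSCs and in MuSCs, with none rising in these 3 populations. Fbxo32, a ubiquitin ligase of muscle atrophy, fell in all 4 populations, from 12.4 ± 1.54 to 2.04 ± 0.723 CPM in MuSCs (log2 fold change -2.58 ± 0.38) and from 20 ± 3.23 to 2.11 ± 1.33 CPM in MSCs (-3.24 ± 0.39). Aldh6a1, an enzyme of valine breakdown, fell in MuSCs from 28.2 ± 4.98 to 11.2 ± 1.77 CPM. Hadh, of fatty acid oxidation, fell in all 4 populations by 0.39 to 0.51 on the log2 scale. Prodh, of the same list, rose in CD31+ cells (log2 fold change 1.28 ± 0.42, adjusted p = 0.0273). Prodh did not pass in CD45+ cells (adjusted p = 0.763), MSCs (0.99 ± 0.46, adjusted p = 0.0916) or MuSCs (adjusted p = 0.884). Of 7 adipogenic genes tested, 3 fell in MSCs and none rose. They were Lpl (1352 ± 321 to 246 ± 9.03 CPM), Srebf1 (139 ± 17.4 to 75.7 ± 10.6 CPM) and Pparg (4.67 ± 1.75 to 1.69 ± 0.605 CPM). In MuSCs 1 of them fell, in CD45+ cells 1 rose and 1 fell, and in CD31+ cells none passed in either direction.

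Immediate early genes are induced within minutes of stimulation, as Klf6 and Klf10 are, and 16 of them were tested. In CD45+ cells 14 of 16 rose and none fell, with a median log2 fold change of 1.64. In MuSCs 2 rose and 8 fell, in MSCs 5 rose and 3 fell, and in CD31+ cells 3 rose and 2 fell. Jun rose from 517 ± 86.5 to 1580.1 ± 198 CPM in CD45+ cells and fell from 1321 ± 205 to 678 ± 63.6 CPM in MuSCs. Fosl1 rose in all 4 populations, from 1.10 ± 1.40 to 209.6 ± 6.67 CPM in MuSCs, and Myc rose in all 4, from 14.4 ± 0.499 to 261 ± 43.3 CPM in CD31+ cells.

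Of 10 TGF-beta pathway genes linked to KLF10 and KLF6, 5 rose in CD31+ cells and 5 in MuSCs (0 and 1 fell), and 3 rose and 2 fell in CD45+ cells and in MSCs. Cdkn1a, a cell cycle inhibitor, rose in CD31+ cells (114 ± 56.2 to 665 ± 128 CPM), CD45+ cells (167 ± 26.9 to 912 ± 210.3 CPM) and MuSCs (27.2 ± 10.9 to 119 ± 28.1 CPM). In MSCs Cdkn1a was 126 ± 17.2 and 88.4 ± 13.9 CPM (adjusted p = 0.192). Of 12 cofactors and ubiquitin ligases of the family, 2 rose and 3 fell in CD31+ cells and in MSCs, while 2 rose and 2 fell among CD45+ cells, and 4 rose and 2 fell in MuSCs. The acetyltransferase Kat2a rose in all 4 populations, and its paralog Kat2b fell in CD31+ cells, MSCs and MuSCs. Of 6 myogenic factors, 1 rose (Myod1, 349 ± 73.1 to 2245 ± 81.9 CPM) and 3 fell in MuSCs. In CD45+ cells 1 was higher and 1 lower, and 0 rose and 1 and 2 fell in CD31+ cells and MSCs.

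The spread of Klf9 and Klf15 between uninjured libraries followed the library number in several populations, a pattern noticed after the values were seen. Klf15 was lowest in library 2 of CD31+ cells and MuSCs, and Klf9 in library 2 of CD31+ cells, MSCs and MuSCs. In CD45+ cells both were lowest in library 3, and Klf15 in MSCs in library 1. Together with the 10 glucocorticoid response genes, and with a mean of at least 5 CPM required, library 2 was the lowest for 9 of 11 genes in uninjured CD31+ cells, 7 of 9 in CD45+ cells, 8 of 12 in MSCs and 10 of 12 in MuSCs. These counts include Klf9 and Klf15 themselves where they reached that mean, so they are not a separate check of the pattern. Over all genes above the same level, library 2 was the lowest for 35.4%, 31.3%, 32.6% and 39.3% in these groups. In the injured groups it was the lowest for 4 of 12, 2 of 9, 2 of 10 and 3 of 11 of these genes.

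Per1, a clock gene that glucocorticoids also induce, had the order library 3, library 1, library 2 in all 4 uninjured populations, with 152, 66.9 and 286 CPM in CD31+ cells, 102, 70.9 and 137 CPM in CD45+ cells, 115, 84.5 and 211 CPM in MSCs and 360.3, 283 and 384 CPM in MuSCs, given in the order of the library numbers. Uninjured MuSC library 2 had the fewest counts of the 24, 2301202. The labels do not say whether these libraries share an animal or a day, and the part of either in this pattern was not tested.

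**Figure D4:**
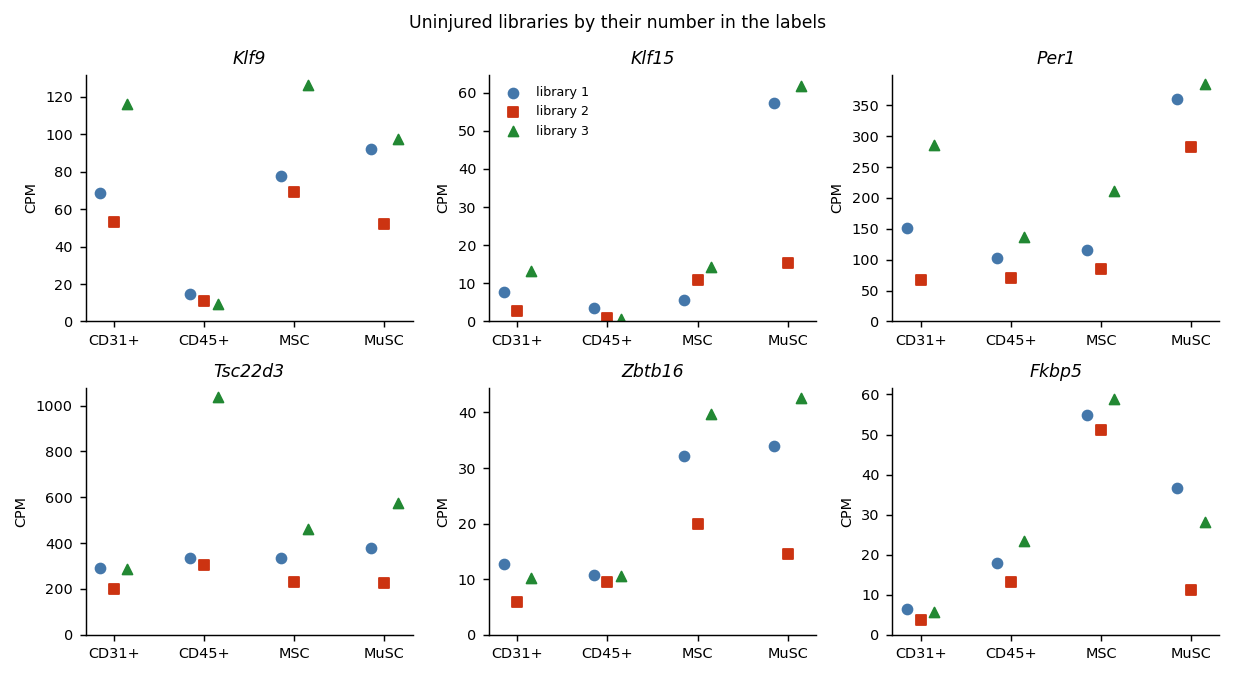
CPM (vertical axis, linear, from 0, a different scale in each panel) of Klf9, Klf15 and 4 glucocorticoid response genes in the uninjured libraries, marked by the library number in the labels (circle 1, square 2, triangle 3). The 4 response genes drawn, Per1, Tsc22d3, Zbtb16 and Fkbp5, are ones for which the square is the lowest of the 3 marks in every population. For Klf15 the square is lowest in CD31+ cells and MuSCs. Of the response genes not drawn, Dusp1, Sgk1 and Errfi1 were lowest in library 2 in every population. Nr3c1 and Cdkn1c were lowest in library 1 or 3 in every population, and so was Mt2 in CD45+ cells and MSCs.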

How the data were processed

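Polyadenylated RNA was reverse transcribed with oligo(dT), amplified by PCR and tagmented, and paired reads of 25 bases were sequenced, per the labels' protocols. The authors deposited raw counts per gene symbol. STAR 2.5.4, featureCounts and mm10 are named in the submitters' processing notes, and the annotation is not given in the sources used here. The counting intervals pool the counts of the 3 libraries of a group and leave out the spread between libraries. No molecular identifiers were used, so these intervals do not cover copying by PCR either.

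The deposited counts of the 24 libraries were fitted with edgeR 4.0.16 (R 4.3.3; robust glmQLFit and glmQLFTest, TMM, filterByExpr with a minimum count of 10, 16263 genes kept, 1 mean per group), with Benjamini-Hochberg adjustment over all genes and a threshold of 0.05. CPM use TMM-scaled totals. SE is approximate, the size of the log2 change over the root of F. Exon lengths and positions came from GENCODE (GRCm38) and promoters from RefSeq. The script was tested on simulated data. The numbers were not treated as pairing the libraries: over all genes, same-numbered libraries' deviations correlated between -0.09 and 0.13 over 28 pairs of groups, and no pair of groups had all correlations over 0.1. Labels call the samples biological replicates without naming animals, so p-values measure the spread between these samples.

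The members and gene lists were chosen with earlier results of these data known. All 10 members are named, and from each list at most 4 genes with the smallest adjusted p in the test of any injury effect, with the 3 most alike genes by correlation. Alternatives were DESeq2 1.42.0, limma 3.58.1 voom, DESeq2 size factors (RLE), other filters, a replicate block, a fit of the compared libraries alone, and leaving out each library.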

Additional observations from a re-analysis of the deposited data

Results flagged for a closer look

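For 9 of the 10 genes the injury effects differed between the 4 populations in edgeR's joint quasi-likelihood test, with adjusted p of 1.33e-06 for Klf2, 0.00105 for Klf3, 4.83e-08 for Klf4, 0.00277 for Klf5, 3.11e-06 for Klf6, 1.93e-07 for Klf7, 0.00902 for Klf9, 0.0387 for Klf10 and 3.56e-05 for Klf13. The same test was passed by 35.9% of all genes. The Klf10 value was lost in 22 of 32 alternative settings, among them leaving out single libraries of each of the 4 populations.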

How the results depend on the processing

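No value of the 10 genes that passed the threshold changed direction under the 33 alternatives. The number of changed genes of the 10 ranged from 4 to 5 in CD31+ cells, 3 to 6 in CD45+ cells, 7 to 9 in MSCs and 4 to 6 in MuSCs when 1 library at a time was left out. The 3 in CD45+ cells, without injured library 1, is the one count that moved by more than 1.5 times from the main value of 5, and Klf10 and Klf15 were the calls lost. The count over all genes in MuSCs was 4111 instead of 6318 without the 3 libraries that held transcripts of another population and injured MuSC library 3. All other counts over all genes stayed within 1.5 times of the main values under the alternatives run, from 2828 to 4491 around 3810 in CD31+ cells and from 5214 to 7323 around 6808 in MSCs. With RLE size factors the all-gene median in CD31+ cells was -0.14 instead of -0.04, and the split changed from 2298 higher and 1512 lower to 1926 higher and 2058 lower. The members' medians were then -0.14 in CD31+ cells, -0.04 in CD45+ cells, -1.75 in MSCs and -0.30 in MuSCs. With the replicate number as a block, 4, 4, 9 and 6 of the 10 genes were called in CD31+ cells, CD45+ cells, MSCs and MuSCs. Klf15 in CD45+ cells was lost (adjusted p = 0.0533) and Klf7 in MuSCs gained (0.0443), and the counts over all genes were 3719, 5426, 6666 and 6157. The log2 change of Klf7 in MuSCs was -0.36 in the main fit and -0.51 when any 1 of 10 libraries of other populations was left out. With RLE size factors it was -0.46, and the all-gene median in MuSCs was -0.13 instead of -0.04. The MuSC counts are the same in all these fits, and the cause of the shift was not tested. The joint test of Klf5 missed the threshold with limma voom (adjusted p = 0.0553), and that of Klf9 without those 4 libraries (0.0698). Depth limits Klf2 in MuSCs, Klf5 in CD31+ and CD45+ cells and Klf15 in CD45+ cells, where 1 or more groups held 20 counts or fewer.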
